A study of Mus musculus with 4 samples.

Results

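RNAseq of the hybrid F123-ESC line was examined for 10 genes that mark embryonic stem cells (ESCs): Dppa2, Dppa3, Dppa4, Dppa5a, Tdgf1, Utf1, Gdf3, L1td1, Lin28a and Trim71. They are the 10 of the 24026 genes in the deposited table whose symbol is on this list. F123-ESCs are male mouse cells from a cross of S129/Jae and Cast mice, with S129 as the maternal and CAST as the paternal genome, and they form a single group of 4 untreated libraries, replicates 1 to 4. The cells were kept with LIF on inactivated feeder fibroblasts, moved to gelatin for at least 2 passages without feeders and collected about 48 h later. The labels do not say whether the libraries came from separate cultures, so the spread between them may be technical. F123 is 1 line from a cross in 1 direction, so the strain of an allele and the parent it came from cannot be told apart. Whether reads of both alleles aligned equally well to the reference genome was not tested.

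Each value is an RPKM, the reads on a gene scaled to its length and to the total of reads, and was given by the authors for each allele. A read enters these values only if it covers a position at which the strains differ, so the RPKM of a gene also depends on how many such positions its transcript holds, and levels of different genes are set side by side with this limit. A level without an allele is the mean of the S129 and the CAST value of a library, and errors are the standard deviation (SD) over 4 libraries unless a standard error (SE) is named. The alleles were compared within each library as the difference of log2(RPKM + 0.1), S129 minus CAST, by limma over the 13341 genes whose allele means sum to at least 1 RPKM, and p-values were adjusted over all of them by the Benjamini-Hochberg method.

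The 10 genes have several roles. Dppa2 and Dppa4 encode a pair of small nuclear proteins with a SAP domain that bind DNA together and are known for priming developmental genes and for switching on genes of the 2-cell stage. Dppa3, also called Stella, encodes a maternal protein that protects the early embryo's maternal genome from loss of DNA methylation. Dppa5a encodes an RNA-binding protein with a KH domain, and Utf1 encodes a chromatin-associated protein of undifferentiated cells. Tdgf1, also called Cripto, encodes the co-receptor of the growth factor Nodal, and Gdf3 encodes a TGF-beta family ligand. L1td1 encodes an RNA-binding protein descended from a LINE-1 element. Lin28a binds the precursor of let-7 microRNAs and blocks its maturation, and Trim71 (Lin41) is an RNA-binding protein that let-7 represses.

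The 4 libraries held 34120416 to 56627972 reads assigned to an allele, fewest in replicate 4, and pairs of them had a Pearson's r of 0.989 to 0.997 on log2 values across the 11946 genes that averaged 1 RPKM or more, which are not independent replicates. Pou5f1, Sox2 and Nanog, the factors that define ESCs, were at 29.5 ± 4.1, 125 ± 14 and 84.5 ± 11.4 RPKM. Feeder fibroblast markers were also present. Of 10, 7 reached 1 RPKM, none was at 0, and their summed level was 185 to 232 RPKM in the 4 libraries, most of it from Col1a2 with 166 ± 18 RPKM. The value of Col1a2 rests on a length of 850 bp, against 12426 bp of annotated exons. Per kilobase of all annotated exons Col1a2 was at 11.3 ± 1.2 RPKM, 6 markers reached 1 RPKM and their sum was 29.5 to 36.3 RPKM. The part that RNA of other cells has in the values below was not tested, and in such bulk RNA a gene's level cannot tell fewer expressing cells from less RNA per cell.

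All 10 genes were expressed, across a range from 27.7 ± 2.0 RPKM for Trim71 to 7111 ± 907 RPKM for Dppa5a. Of them, 8 were called higher on the S129 allele and none on CAST (also 0 at an unadjusted p under 0.05 in limma). Utf1 and L1td1 did not pass the test. The count of 8 fell to 5 without replicate 2, to 6 without any other 1 library, and to 5 in a fit that ignores the pairing of the alleles by library. Of all genes tested, 31.4% were higher on S129 and 31.3% on CAST (62.7% in either direction), and their median difference was -0.0034, beside a median of 0.23 for the 10 genes. The tested genes include those of the X chromosome, of which these male cells hold only the S129 copy, while the 10 genes are autosomal. With 1 sum over autosomal genes for each allele, 5121 genes were higher on S129 and 3072 on CAST in place of 4187 and 4182, and the same 8 of the 10 were higher on S129. The S129 and CAST values did not overlap for 4 of the 10 genes (Dppa2, Dppa4, Dppa5a and Gdf3), and 23.3% of all tested genes were higher on S129 without overlap. Only Dppa2 differed by 2-fold or more, a size that 15.9% of tested genes reached in either direction. The plot of RPKM per allele shows these values.

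**Figure D1:**
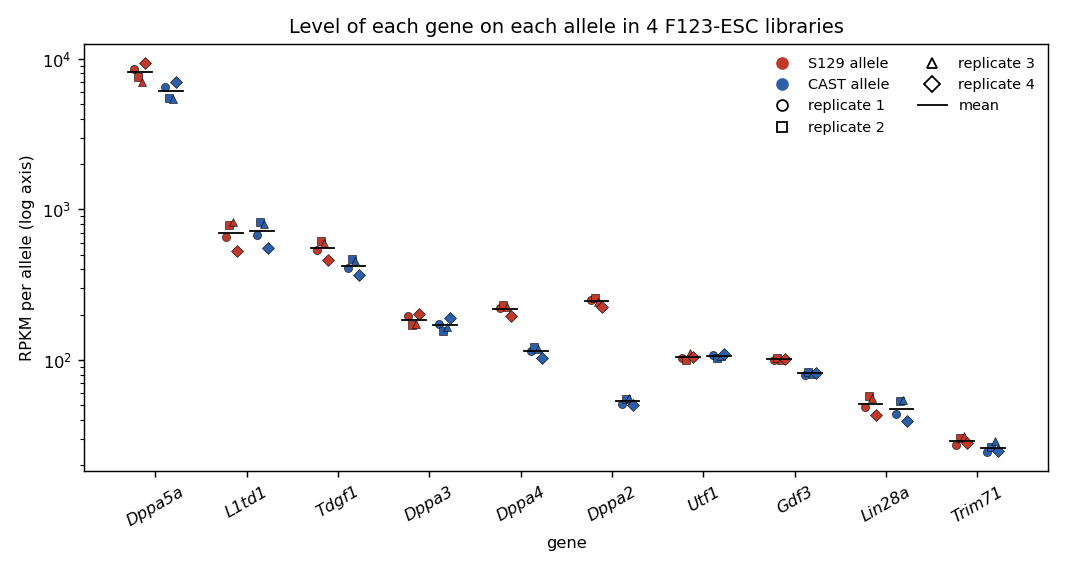
RPKM (log axis) of each of the 10 genes on the S129 allele (red) and the CAST allele (blue). Symbols are replicates 1 to 4 and lines are means of 4 libraries. The alleles stand furthest apart for Dppa2, with means of 245 and 53.0 RPKM, and overlap for all genes but Dppa2, Dppa4, Dppa5a and Gdf3.

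Dppa2 showed the largest difference of the 10. Its S129 allele was at 251, 260.0, 244 and 225 RPKM in replicates 1 to 4, and its CAST allele was at 51.0, 55.1, 56.2 and 49.9 RPKM. Every S129 value was far above every CAST value. S129 was 4.61-fold higher (log2 difference 2.21 ± 0.04 SE, adjusted p = 1.07e-05), and the difference ran from 2.12 to 2.30 in the 4 libraries. Of the 55990 reads of Dppa2, 82.8% came from S129 (95% exact binomial interval 82.5% to 83.1%), so the paternal allele still gave 9620 reads. Reads were recovered from the steps between the RPKM values, and shares are not divided by the totals, which were larger on S129 in each library. This interval and those below cover counting error only.

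Dppa4, the partner of Dppa2 that starts 20.2 kb before it (chr16:48283733-48294237 and chr16:48303908-48319723, both on the + strand of mm10), had a smaller difference of the same sign. S129 gave 221, 233, 223 and 197 RPKM, and CAST gave 114, 121, 119 and 103 RPKM. The lowest S129 value, in replicate 4, was above the highest CAST value, in replicate 2. S129 was 1.91-fold higher (log2 difference 0.93 ± 0.03 SE, adjusted p = 4.37e-05), with 66.5% of its 49044 reads (66.1% to 66.9%). Over both alleles the pair was close, with mean levels of 167 ± 12 RPKM for Dppa4 and 149 ± 8 RPKM for Dppa2, and Dppa4 was above Dppa2 in 4 of 4 libraries. On S129 alone the order was the other way, with means of 219 ± 15 and 245 ± 15 RPKM.

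Chromosome 16 was higher on S129 as a whole. The median S129 share of its 413 tested genes was 62.8%, against 50.6% to 54.4% on the other chromosomes that carry the 10 genes. Among the 50 genes nearest to Dppa2 the median share was 64.8%, 43 were over 50%, and 49 lay below Dppa2. Of the 50 nearest to Dppa4, 29 lay below it. These sets reach out to 9.32 and 9.34 Mb, against 1.18 Mb for Lin28a, the shortest reach among the 10 genes. The tested neighbours were Nectin3, 1785 kb before Dppa4, with a log2 difference of 0.67 ± 0.03 SE, and Morc1, a germ cell gene 127 kb after Dppa2, with 0.78 ± 0.03 SE, and both passed the test (adjusted p of 0.000169 and 0.000112). With the median of the 50 nearest genes taken out in each library, Dppa2 kept a difference of 1.42 ± 0.05 SE (adjusted p = 9.82e-05), or 2.67-fold, and Dppa4 one of 0.15 ± 0.04 SE (adjusted p = 0.023), or 1.11-fold. Both were higher on S129 in 4 of 4 libraries after this step. By the same step, 7 of the 10 genes were higher on S129, beside 28.5% of 13336 genes tested.

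**Figure D2:**
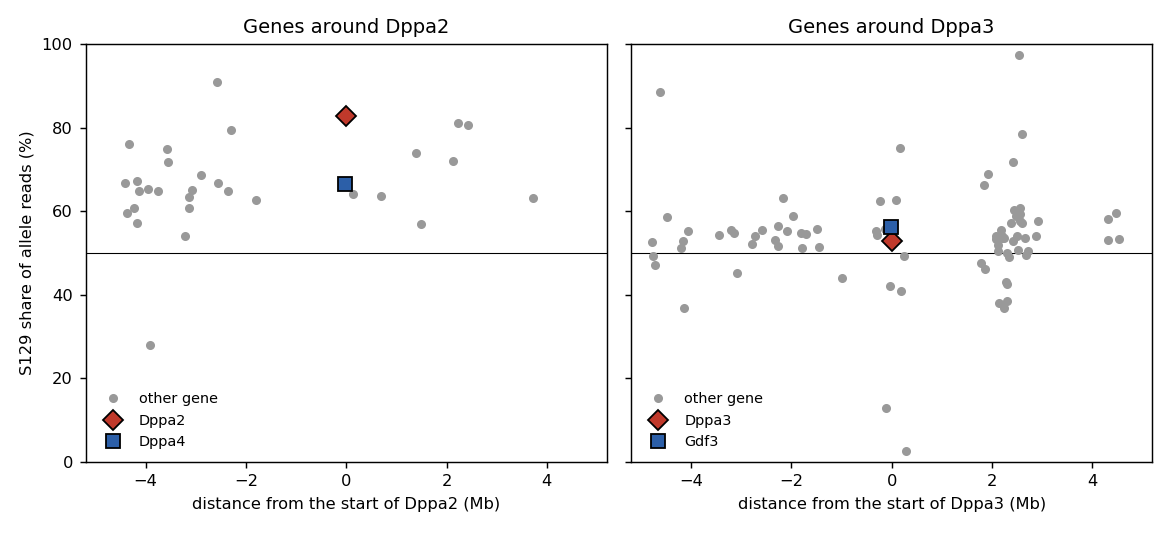
S129 share of reads (%) of genes with at least 400 reads, by distance (Mb) from the start of Dppa2 (left) and of Dppa3 (right). Each point is 1 gene with its reads summed over 4 libraries, and the line marks 50%. Around Dppa2, 31 of 32 genes lie above 50% and 1 lies above Dppa2 itself. Around Dppa3, shares of 82 genes spread from 2.66% to 97.3% with a median of 54.0%.

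The 3 tested genes whose differences in the 4 libraries were most like those of Dppa2 lie on other chromosomes. They were Rian, Cyb5r1 and Ephx2, with root mean square differences from it of 0.05, 0.05 and 0.06 on the log2 scale and mean allele differences of 2.17, 2.17 and 2.19.

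Dppa3 and Gdf3 start 16.3 kb apart on chromosome 6 (chr6:122626410-122630272 on the + strand and chr6:122605403-122610087 on the - strand), beside Nanog. The S129 allele of Gdf3 was at 99.3, 104, 99.4 and 101 RPKM, and its CAST allele was at 79.9, 83.8, 81.0 and 82.4 RPKM. The alleles did not overlap and the values of each were close to each other in all libraries. S129 was 1.23-fold higher (log2 difference 0.30 ± 0.03 SE, adjusted p = 0.00111), with 56.2% of 36768 reads (55.7% to 56.7%).

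The S129 allele of Dppa3 was at 195, 170.3, 173 and 202 RPKM, and its CAST allele was at 174, 157, 167 and 189 RPKM. S129 was higher within each library, but the alleles overlapped between libraries, since both were high in replicates 1 and 4. The log2 difference was 0.11 ± 0.03 SE (1.08-fold, adjusted p = 0.0486). This call was lost without any 1 of the 4 libraries, with adjusted p from 0.0837 without replicate 3 to 0.150 without replicate 1 (0.148 without replicate 2 and 0.091 without replicate 4), and without the filter on low values (adjusted p = 0.11).

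Of the 50 genes nearest to Dppa3, 34 were over 50% and the median share was 53.6%, beside 52.9% for Dppa3. With the median of the 50 nearest genes taken out, Gdf3 kept a difference of 0.16 ± 0.03 SE (adjusted p = 0.0162), while Dppa3 turned to -0.06 ± 0.04 SE and did not pass the test (adjusted p = 0.311). Nanog, 81.1 kb after Dppa3, had a log2 difference of 0.68 ± 0.03 SE, and Apobec1, the neighbour on the other side of Gdf3, one of -0.54 ± 0.12 SE, and both passed the test (adjusted p of 0.000143 and 0.0163). 

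Dppa5a was the most abundant of the 10 and stood 16th of all genes by mean RPKM. Its S129 allele was at 8615, 7529, 7062 and 9326 RPKM, and its CAST allele was at 6513, 5463, 5388 and 6991 RPKM. Replicates 1 and 4 were higher than replicates 2 and 3 on both alleles, and the lowest S129 value was above the highest CAST value. S129 was 1.34-fold higher (log2 difference 0.42 ± 0.03 SE, adjusted p = 0.000543), with 58.1% of 827542 reads (58.0% to 58.2%).

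Reads of this single gene of 619 bp of exons (chr9:78367052-78368177, - strand) made up 0.386% to 0.507% of all assigned reads in a library, and those of the 10 genes together 0.695% to 0.763%. The 3 genes whose values in the 8 allele columns were closest to those of Dppa5a encode ribosomal proteins. They were Rps9, Rpl7 and Rpl32, at 6868 ± 466, 6142 ± 395 and 5901 ± 381 RPKM, with root mean square differences from Dppa5a of 0.19, 0.22 and 0.29 on the log2 scale over 8 columns.

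On chromosome 9 the neighbours of Dppa5a went both ways. Ooep, an oocyte gene of the same KH-domain family whose start lies 10.5 kb from its own, was lower on S129, with a log2 difference of -0.79 ± 0.04 SE (adjusted p = 0.000194) and a share of 37.5%. Gsta4, a glutathione transferase gene 185 kb on the other side, was higher on S129, with 0.26 ± 0.03 SE (adjusted p = 0.00192). With the median of the 50 nearest genes taken out, Dppa5a kept a difference of 0.33 ± 0.04 SE (adjusted p = 0.00203).

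**Figure D3:**
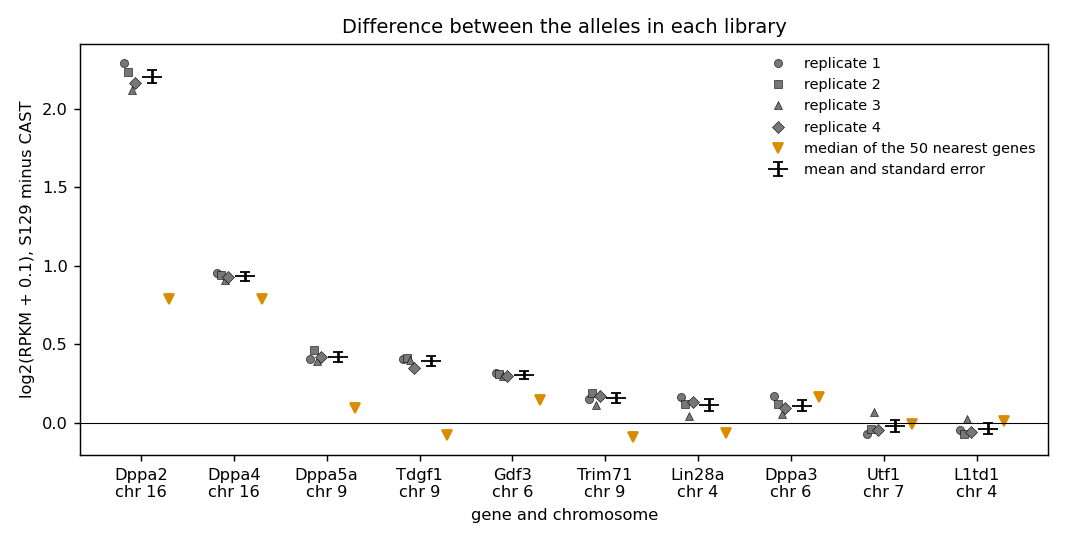
Difference of log2(RPKM + 0.1), S129 minus CAST, for each gene and its chromosome. Grey symbols are replicates 1 to 4, black bars are means with SE of 4 libraries, and orange triangles are the median differences of the 50 nearest genes. Dppa2, at 2.21, stands above its neighbours' 0.79, while Dppa4, at 0.93, stands close to the same 0.79.

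Tdgf1 (chr9:110939603-110946158, - strand) was also higher on the maternal allele. The S129 values were 539, 619, 595 and 464 RPKM, and the CAST values were 407, 465, 452 and 365 RPKM. S129 was higher in every library, and the alleles overlapped only through the S129 value of replicate 4, which was lower than the CAST value of replicate 2. S129 was 1.31-fold higher (log2 difference 0.39 ± 0.03 SE, adjusted p = 0.000655), with 57.8% of 180966 reads (57.5% to 58.0%). The 50 nearest genes had a median difference of -0.08, and with this taken out the difference of Tdgf1 was 0.47 ± 0.04 SE (adjusted p = 0.00096).

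Its neighbour Lrrc2 had a log2 difference of 0.25 ± 0.05 SE (adjusted p = 0.0112), and Fam240a on the other side, at 0.86 ± 0.34 RPKM, did not pass the test (-0.57 ± 0.30 SE, adjusted p = 0.166). Of 15 Nodal and Gdf signalling genes besides Tdgf1 and Gdf3, 12 were tested. Of these, 2 were higher on S129 and 3 on CAST, and the median difference was -0.06. For this and the gene lists below, the shares over all tested genes were 31.4% on S129 and 31.3% on CAST. No list was tested as a set. The ligand Nodal, at 86.0 ± 3.6 RPKM, was slightly higher on CAST (-0.11 ± 0.03 SE, adjusted p = 0.0379). Lefty1, an inhibitor of Nodal, was at 50.2 ± 2.6 RPKM and higher on S129 (0.37 ± 0.04 SE, adjusted p = 0.00122). Pcsk6, a protease that cleaves Nodal precursors, was at 54.4 ± 5.5 RPKM on a length of 619 bp, against 5190 bp of annotated exons, and was higher on S129 (0.66 ± 0.09 SE, adjusted p = 0.00327), while Gdf1, a further ligand, was listed at 0 in all columns.

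Utf1 (chr7:139943789-139945112, + strand) showed no difference that passed the test. On S129 it was at 103, 101, 111 and 105 RPKM, and on CAST at 109, 103, 106 and 109 RPKM. S129 was the higher allele in replicate 3 and CAST in the other libraries. The log2 difference was -0.02 ± 0.04 SE (adjusted p = 0.622), and 50.5% of 24558 reads came from S129 (49.9% to 51.2%), which does not show that the alleles were alike. Its tested neighbour Kndc1, 49.1 kb before it, was higher on S129 (0.87 ± 0.03 SE, adjusted p = 5.8e-05). The other neighbour Mir7686, at 1.50 ± 0.57 RPKM, did not pass the test (1.84 ± 1.06 SE, adjusted p = 0.195).

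L1td1 (chr4:98726734-98738480, + strand) likewise did not pass the test. In replicates 1 to 4 it was at 656, 785, 820.2 and 530.4 RPKM on S129 and at 678, 824, 806 and 553 RPKM on CAST. Both alleles were high in replicates 2 and 3 and low in replicate 4, and they overlapped. The log2 difference was -0.04 ± 0.03 SE (adjusted p = 0.371), and the share was 50.3% of 95774 reads (50.0% to 50.7%). The sign of both small differences depends on the scaling. With each library's alleles brought to 1 sum over autosomal genes, which moved the median of all genes from -0.0034 to 0.10, Utf1 was at 0.08 and L1td1 at 0.07, and neither passed the test. Its neighbour Patj was at -0.04 ± 0.05 SE (adjusted p = 0.485), and Kank4, with its start 90.8 kb from that of L1td1, was higher on CAST (-0.77 ± 0.06 SE, adjusted p = 0.000478).

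Lin28a (chr4:134003330-134018841, - strand) differed little between the alleles. It was at 48.8, 58.0, 55.6 and 43.2 RPKM on S129, and on CAST at 43.5, 53.5, 54.0 and 39.4 RPKM. S129 was higher within each library, by less than the spread between libraries. The log2 difference was 0.11 ± 0.04 SE (1.08-fold, adjusted p = 0.0483), and 52.9% of 33206 reads came from S129 (52.3% to 53.4%). The call was lost without any 1 of the libraries, with adjusted p of 0.150, 0.142, 0.0651 and 0.111 without replicates 1 to 4, and without the filter on low values (0.107). With the median of the 50 nearest genes, -0.06, taken out it was 0.18 ± 0.05 SE (adjusted p = 0.0265).

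Trim71 (chr9:114507133-114564369, - strand), the gene that let-7 holds down, was at 27.2, 30.2, 31.4 and 27.9 RPKM on S129 and at 24.5, 26.4, 29.1 and 24.8 RPKM on CAST. S129 was higher within each library, and the alleles overlapped because the CAST value of replicate 3 was above the S129 values of replicates 1 and 4. The log2 difference was 0.16 ± 0.03 SE (1.11-fold, adjusted p = 0.0128), with 53.6% of 48955 reads from S129 (53.2% to 54.1%). It did not pass the test without replicate 2 (0.14, adjusted p = 0.0615). With the median of its 50 nearest genes, -0.09, taken out, the difference was 0.25 ± 0.03 SE (adjusted p = 0.00437).

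The neighbours of these 2 genes were Dhdds (0.32 ± 0.06 SE) and Crybg2 (0.23 ± 0.04 SE) for Lin28a, both higher on S129 (adjusted p of 0.00951 and 0.00773). For Trim71 they were Tmppe, which did not pass the test (-0.09 ± 0.07 SE, adjusted p = 0.298), and Cnot10 (0.24 ± 0.04 SE, adjusted p = 0.00713).

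Of the 11 other genes of the let-7 and Lin28 pathway in the table, 10 were tested, 6 were higher on S129 and 3 on CAST, with a median difference of 0.20. The let-7 target Igf2bp1 was at 49.8 ± 4.2 RPKM and higher on S129 (0.16 ± 0.03 SE, adjusted p = 0.0105). Drosha, the nuclease that cuts primary microRNAs, was at 30.2 ± 3.5 RPKM and higher on S129 (0.38 ± 0.03 SE, adjusted p = 0.000923), while the let-7 target Hmga2, at 30.4 ± 1.7 RPKM, was higher on CAST (-0.85 ± 0.03 SE, adjusted p = 5.3e-05). Of 10 genes, made up of Trim71 targets, Argonaute genes and Tnrc6a, 8 were tested. None was higher on S129 (0 also at an unadjusted p under 0.05) and 3 were higher on CAST. The 3 with the highest RPKM were Cdkn1a, Tnrc6a and Ago3 at 424 ± 36, 38.4 ± 4.4 and 19 ± 1.1 RPKM. These rest on 748, 688 and 682 bp, and per kilobase of all annotated exons they were at 89.3 ± 7.7, 2.08 ± 0.24 and 0.782 ± 0.043 RPKM, the last 2 below Ago1 with 7.11 ± 0.48.

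Of 9 other Dppa and KH-domain genes and partners of Dppa3 in the table, 5 were tested, with 1 higher on S129 and 3 on CAST. The highest RPKM were those of Khdc3 (350.3 ± 24, on 619 bp of 2050 bp of annotated exons), Uhrf1 (122 ± 17) and Ooep (116 ± 13), and per kilobase of all exons Khdc3 was at 106 ± 7. The 12 genes of the 2-cell-like state in the table, a state that Dppa2 and Dppa4 are known to promote, were low. Only Zscan4d reached 1 RPKM, with 2.52 ± 0.08 RPKM, followed by Usp17la and Usp17lc at 0.517 ± 0.081 and 0.411 ± 0.131 RPKM, and Zscan4b, Zscan4c and Gm6763 were listed at 0. Close copies were searched only for the 10 genes described, so whether reads of these 12 were split between related genes was not tested.

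Further marker lists describe the state of the cells. All 11 naive pluripotency factors reached 1 RPKM, with Tfcp2l1, Zfp42 and Nr0b1 the highest at 583 ± 38, 512 ± 47 and 97.6 ± 5.2 RPKM. The RPKM of Tfcp2l1 rests on 478 bp of 9438 bp of exons, and was 29.5 ± 1.9 per kilobase of all of them. Of these factors 2 were higher on S129 and 4 on CAST. Among the 2 was Nr0b1, on the X chromosome, of which male cells hold only the maternal copy, so its call compares no alleles. Of the 3 core factors Sox2 and Nanog were higher on S129 (0.66 ± 0.03 SE and 0.68 ± 0.03 SE) and Pou5f1 on CAST (-0.24 ± 0.06 SE, adjusted p = 0.0242). Of 9 formative and primed genes, 5 reached 1 RPKM, and the highest were Dnmt3b, T and Otx2 at 71.2 ± 7.2, 8.89 ± 0.96 and 2.37 ± 0.17 RPKM. Per kilobase of all annotated exons 4 reached 1 RPKM, and Otx2 at 1.46 ± 0.11 was below Fgf5 at 1.53 ± 0.26. None of the 7 tested was higher on S129 (0 also at an unadjusted p under 0.05) and 5 were higher on CAST. Over all tested genes the shares were 31.4% and 31.3%, and no difference between lists was tested.

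All 8 primordial germ cell genes reached 1 RPKM, led by Ifitm3, Dazl and Tfap2c at 645 ± 148, 53.0 ± 7.5 and 29.1 ± 2.7 RPKM, with 1 higher on S129 and 4 on CAST. Of the feeder fibroblast markers, 8 were tested, 5 were higher on S129 and 2 on CAST, and after Col1a2 the highest were Postn and Col3a1 at 15.4 ± 2.2 and 11.4 ± 1.5 RPKM (5.52 ± 0.80 and 3.68 ± 0.49 per kilobase of all annotated exons). Of 8 primitive endoderm markers, 5 reached 1 RPKM, led by Dab2, Col4a1 and Pdgfra at 44.2 ± 2.9, 26.9 ± 2.5 and 3.31 ± 0.25 RPKM, with 1 higher on S129 and 2 on CAST of 6 tested. Dab2 rests on 642 of 7342 bp and Pdgfra on 2876 of 10024 bp. Per kilobase of all annotated exons 2 markers reached 1 RPKM, Col4a1 with 23.9 ± 2.2 and Dab2 with 3.86 ± 0.25. Of 7 trophoblast markers only Eomes and Hand1 reached 1 RPKM, at 2.92 ± 0.36 and 1.22 ± 0.17 RPKM, followed by Krt7 at 0.703 ± 0.142 RPKM on 690 of 7049 bp of exons, and 1 of 4 tested was higher on S129.

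By mean level, the order of the 10 genes was Dppa5a, L1td1, Tdgf1, Dppa3, Dppa4, Dppa2, Utf1, Gdf3, Lin28a and Trim71. L1td1 was at 707 ± 128.8 RPKM, Tdgf1 at 488 ± 57, Dppa3 at 178 ± 14, Utf1 at 106 ± 3, Gdf3 at 91.4 ± 1.9 and Lin28a at 49.5 ± 7.0. Of the 9 pairs of neighbours in this order, 8 kept it in 4 of 4 libraries. Dppa3 and Dppa4 did not differ beyond their spread, with Dppa3 higher in 2 of 4 libraries and a mean log2 difference of 0.10 ± 0.22. Over 4 libraries the exact two-sided sign-flip permutation test cannot give a p below 0.125, the value of each of the other 8 pairs (0.141 adjusted over 9 pairs). In the ranking of all 24026 genes, Dppa5a stood at the 99.9th percentile, with L1td1 and Tdgf1 at 99.4 and 99.2. Utf1 stood at 96.0, Gdf3 at 95.4, Lin28a at 91.8 and Trim71 at 87.0, with Dppa2, Dppa3 and Dppa4 between 97.2 and 97.7. With all genes taken per kilobase of all annotated exons, L1td1 moved down to 98.7 and the others moved up. Trim71 was then at 92.6, Lin28a at 95.2, Gdf3 at 97.4, Utf1 at 98.1 and Tdgf1 at 99.4. Dppa2, Dppa3 and Dppa4 lay between 98.3 and 98.8.

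The place of L1td1 rests on the length in its RPKM. The steps between its values fit a length of 705 bp, that of 1 of its 4 annotated transcripts, while its exons together cover 3174 bp. Per kilobase of all annotated exons L1td1 was at 157 ± 29 RPKM and fell to the fourth place. There it did not differ beyond the spread from Dppa3 (167 ± 14) or Dppa4 (154 ± 11), each being higher than its neighbour in 2 of 4 libraries. For Tdgf1 the same change gave 360 ± 42 RPKM and for Dppa2 119 ± 7, and the lengths of Dppa5a, Utf1 and Trim71 were already those of all their exons.

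The libraries varied more for some of the 10 genes than for others. L1td1 had the widest spread, at 667, 805, 813 and 542 RPKM in replicates 1 to 4, and its SD on the log2 scale was larger than that of 94.0% of the 11946 genes. Gdf3 and Utf1 were the steadiest. Gdf3 was at 89.6, 93.7, 90.2 and 91.9 RPKM, with a coefficient of variation of 2.03%, and only 1.26% of genes had a smaller SD, while 2.87% had a smaller SD than Utf1. The SD of Dppa5a was 56.9 times, that of L1td1 27.8 times and that of Gdf3 1.91 times the SD that counting error alone would give.

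Short and longer genes of the 10 were high in different libraries. Dppa5a and Dppa3, with 619 and 892 bp of exons, were highest in replicate 4, by 0.21 and 0.14 above their mean on the log2 scale, and were low in replicates 2 and 3. Tdgf1, L1td1 and Lin28a, with 2622 to 3996 bp, were lowest in replicate 4, by -0.23, -0.36 and -0.25, and high in replicates 2 and 3. Over all genes, those under 1000 bp had a median deviation of 0.13 in replicate 4 and those of 4000 bp and over one of -0.12, and 55.1% of the 11946 genes were lowest in this library. Trim71, with 9332 bp, was at -0.07 there, Dppa2 at -0.12, Dppa4 at -0.15 beside a median of 0.04 for its class of 1000 to 2000 bp, and Gdf3 and Utf1 at 0.01 and 0.02. The part that transcript length or depth has in these deviations was not tested. The SD of the S129 share over the 4 libraries ran from 0.127 percentage points for Gdf3 to 1.12 for Utf1.

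**Figure D4:**
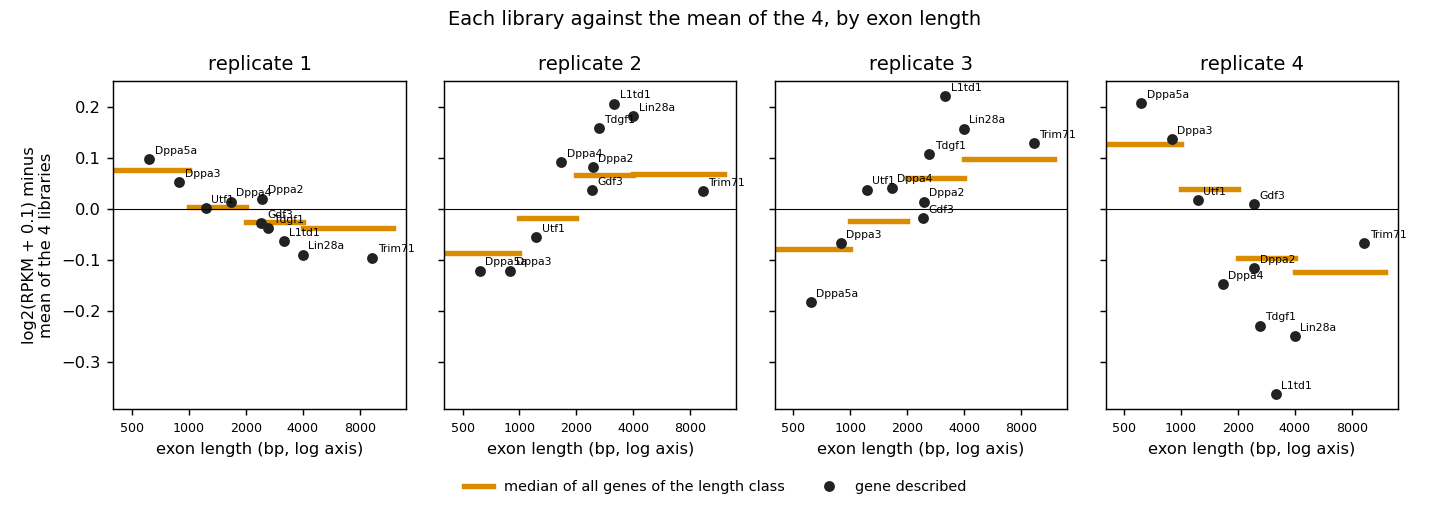
Deviation of each library from the mean of the 4 libraries in log2(RPKM + 0.1), against the exon length (bp, log axis) of each of the 10 genes (points). Orange bars are medians of all genes of a length class, and panels are replicates 1 to 4. In replicate 4 Dppa5a and Dppa3 lie above 0, at 0.21 and 0.14, and L1td1 lies lowest, at -0.36.

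Some transcripts have close copies elsewhere in the genome, between which reads could be split. By BLAST against GENCODE M21 transcripts, with at least 95% identity over at least 150 bp, Dppa2 matched the pseudogenes Gm9788 (99.3% over 906 bp) and Gm8023, Dppa4 matched Gm14058 and Gm5501, Dppa3 matched Dppa3-ps (98.2% over 451 bp) and Tdgf1 matched Tdgf1-ps1 (98.8% over 512 bp). Dppa5a matched 6 genes, of which Pigp (95.9% over 417 bp) was at 61.9 RPKM and Gm6083 at 0.979 RPKM. The other matches of Dppa5a, and all those of Dppa2, Dppa3, Dppa4 and Tdgf1, were not among the genes given values by the authors. Utf1, Gdf3, L1td1 and Trim71 had no such match. The values of the matched genes, those of Dppa2 included, are uncertain to the extent that reads of copies were counted with them, which was not tested. Lin28a and Trim71 overlap the antisense genes Gm13061 and C130032M10Rik, and whether the counting used the strand is not given in the sources used here.

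For 5 of the 10 genes, RefSeq (GRCm38.p6) gives the sequence before the transcription start, and its first 250 bases upstream were searched on both strands for 6 motifs known from ESC promoters. The GC box GGGCGG, which Sp1 and its relatives bind, was found 4 times before Utf1, with 1 base shared by a pair of them, once before Tdgf1 and once before Trim71, and is present in 32.7% of 32851 promoters. The KLF motif GGGNGTGG was found 2 times before Tdgf1 and 1 time before L1td1 (15.9% of promoters). The SOX core CATTGT was found before Lin28a (10.7%). The octamer ATGCAAAT (1.6%), the Esrrb motif TCAAGGTCA (0.387%) and the TATA box TATAAA (12.4%) were not in these windows. Shown are the 3 genes with a GC box: Tdgf1 (chr9:110946159-110946408, - strand), higher on S129, Utf1 (chr7:139943606-139943788, + strand), with no difference called between the alleles, and Trim71 (chr9:114564370-114564619, - strand), the least abundant. They run 5′ to 3′ in the direction of the gene with the motifs in capitals, and that of Utf1 stops at its annotated gene start and so holds 3 of its 4 matches.
Tdgf1: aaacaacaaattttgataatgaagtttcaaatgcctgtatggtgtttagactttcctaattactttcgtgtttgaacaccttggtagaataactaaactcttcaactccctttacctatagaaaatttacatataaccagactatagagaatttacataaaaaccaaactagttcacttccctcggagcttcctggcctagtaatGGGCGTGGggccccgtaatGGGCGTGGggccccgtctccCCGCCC
Utf1: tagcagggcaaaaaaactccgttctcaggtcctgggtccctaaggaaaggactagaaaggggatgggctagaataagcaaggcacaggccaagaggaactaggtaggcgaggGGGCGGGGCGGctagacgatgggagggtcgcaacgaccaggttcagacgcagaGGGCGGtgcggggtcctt
Trim71: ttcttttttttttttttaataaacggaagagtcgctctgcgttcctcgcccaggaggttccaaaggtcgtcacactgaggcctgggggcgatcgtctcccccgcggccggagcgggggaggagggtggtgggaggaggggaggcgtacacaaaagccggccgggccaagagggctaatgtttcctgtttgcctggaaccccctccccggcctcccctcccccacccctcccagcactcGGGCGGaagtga
These are the letters of the reference genome and were not read from either allele, and a match is a description of the letters. The 250 bases of Tdgf1 were poorer in G and C (42.0%) than the median promoter (52.4%), while those of L1td1, Lin28a, Utf1 and Trim71 held 57.6% to 62.8%. The windows of Utf1, L1td1 and Lin28a include 67, 20 and 25 bases inside the GENCODE gene, which these values count. All 5 windows held more CpG than the median of 6. Trim71 held 17, Utf1 14, L1td1 11, and Tdgf1 and Lin28a 7 each.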

How the data were processed

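The authors enriched polyA RNA, made stranded libraries, sequenced them in pairs of 150 bp and removed rRNA reads and adapters (Trimmomatic 0.40). They aligned the reads with STAR to mm10 in which S129/CAST differences were masked, and SNPsplit assigned them to an allele. Each column the authors deposited for a library holds the RPKM of 1 allele; the counting program and gene annotation are not given in the sources used here. The authors also deposited the average RPKM of each allele and log10 of that average plus 1, not used here.

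Columns were matched to libraries by allele and number. Each column's total, and gene lengths, were recovered from the steps between values; 20134 of 20243 genes above 0 (99.46%) came out as whole reads, within 0.02 reads or a relative 2e-07. The count tests were not run on them. The length of Dppa4 (1534 bp) fits no annotated transcript, so its reads are the fewest possible. Totals were 17403695 to 28772351 reads on S129 and 16716721 to 27855621 on CAST. GENCODE M21 (mm10) gave coordinates and exons. Nearest genes were found by their lowest coordinates, and printed distances run between annotated 5′ starts. Marker list levels per kilobase of all exons were added after seeing the data.

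Alleles were compared with limma 3.58.1 in R 4.3.3 (intercept only, adjusted p threshold 0.05), which was tested on simulated data. Other steps used Python 3.11.15, scipy 1.17.1 and BLAST+ 2.17.0. Columns of the same number deviated together from their allele means (correlation 0.146 to 0.242 over 11543 genes, against -0.196 to 0.156 for different numbers), and they pair because both are reads of the same library. The 10 genes, the marker lists and the rule for named genes (the 10, the core factors, up to 3 genes a list and those at 0, nearest tested neighbours and most similar genes) were chosen with earlier results of these data known. Alternatives were other pseudocounts, filters, scalings, lengths, alleles alone, a variance trend, no replicate block and each library left out.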

Additional observations from a re-analysis of the deposited data

Results flagged for a closer look

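The S129 share of L1td1 reads in replicate 3 was 51.4%, apart from the 49.9% to 50.0% of the other 3 libraries by Dixon's criterion. Levels and shares of the 10 genes gave 20 such groups of 4 values, and chance marks about 1 in 20 groups. The share in replicate 3 was higher than in each other library for Utf1 as well (52.1% against 49.5% to 50.4%), where the criterion was not met. No test of the difference between libraries was made.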

How the results depend on the processing

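Dppa2, Dppa4, Dppa5a, Tdgf1 and Gdf3 kept their direction and passed the test under all 14 alternatives, with log2 differences of 1.42 to 2.31, 0.15 to 1.04, 0.33 to 0.52, 0.38 to 0.49 and 0.10 to 0.41. Without the replicate block, which ignores the pairing of alleles by library, 5 of the 10 genes passed in place of 8 (Dppa3, Lin28a and Trim71 did not, with adjusted p of 0.363, 0.536 and 0.164), and 3292 and 3133 genes were higher on S129 and CAST in place of 4187 and 4182. With 1 library left out, 5 (without replicate 2) to 6 of the 10 passed, and 3466 to 3955 genes were higher on S129 and 3380 to 3949 on CAST. Dppa3 turned to -0.0935 with the chromosome median taken out and to -0.0558 with that of the 50 nearest genes. Utf1 turned to 0.0794 and L1td1 to 0.0651 with 1 sum over autosomal genes, which gave 5121 genes higher on S129 and 3072 on CAST, and to 0.0317 and 0.0173 with reads not divided by a total, an alternative chosen after seeing the data. The causes were not tested. Of the alternative values of levels, percentiles and S129 shares, 15 of 90, 28 of 100 and 8 of 60 moved by more than 1 SD. Neither leaving out 1 library nor taking the median can shift a level by 1 SD, so those alternatives could not be counted as moved. All 8 shares that moved were those taken from the RPKM of both alleles. The order of the 10 genes kept 7 of its 9 neighbour pairs on S129 alone and 8 on CAST alone or by annotated exon length, and all 9 under the other alternatives. None of the 10 genes passed the test as higher on CAST under any alternative. Each of the 10 genes had at least 1625 reads on each allele in each library, and the spread between libraries was wider than counting error for all 10 levels.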
